A study of Mus musculus with 21 samples.

Results

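A set of 10 genes for secreted signals of the bone marrow stroma was followed: the chemokines Ccl2, Ccl7, Ccl11, Ccl19, Cxcl1, Cxcl10, Cxcl14 and Cxcl16, and the IL-6 family cytokines Il6 and Lif. They were chosen with earlier results of these data known, and are 10 of the 26852 genes measured and 10 of the 12976 genes tested. The study sorted Nes low mesenchymal cells, the weakly green fluorescent cells of mice that carry a Nestin-GFP reporter, and profiled them by RNA-seq. It asked how these niche cells change as human acute myeloid leukemia (AML) grows in the marrow. The leukemic cells were HL60 or ML1, human AML cell lines that release sLP-mCherry, a lipid-permeable red protein taken up by neighbouring cells.

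All mice were NSG mice, an immunodeficient strain without T, B and natural killer cells, with the Nestin-GFP reporter. The ctrl group held 3 libraries from unengrafted mice, fewer than the paper's legend counts. The leukemic mice were 8 to 12 weeks old and unconditioned when they received HL60 or ML1 cells, an age that the protocol label gives for all samples, ctrl included. Each line gave 3 groups of 3 libraries. At the early stage, when engraftment was low, mCherry-positive (ch+) and mCherry-negative (ch-) cells were sorted apart, from the same marrow by the paper's account, although the labels do not say which libraries belong together. At the late stage, when the marrow was heavily engrafted, cells were taken with no mCherry gate. By the methods, leukemic mice were taken once they reached a set level of engraftment, and their age at sampling varied. The treatment field calls the ML1 late samples unengrafted, against their titles and time points, which were followed. Whether a library came from 1 mouse or from several is not stated, so the p-values measure the spread between these libraries, which may be technical. Bone was digested with enzymes, and human and mouse blood cells were removed with magnetic beads before the sort. The remaining cells were stained for CD45, Ter119 and CD31, markers of leukocytes, erythroid cells and endothelium, and sorted by their reporters. The reads were aligned to the mouse genome, and whether transcripts of the human cells added to any value was not tested. Values are regularized log2 values, and the depth of each library is not given.

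The labelled cell type was checked against its markers. The 9 genes of CXCL12-abundant reticular (CAR) or LepR+ stroma averaged 11.40 ± 0.31 (log2, SD, n = 3) in ctrl, and Cxcl12 was their most abundant gene in each of the 21 libraries. Transcripts of osteoblasts averaged 14.20 in ctrl, those of chondrocytes 11.49 and those of smooth muscle and pericytes 10.29, so the sorted population was mixed mesenchyme. Endothelial genes averaged 4.83 in ctrl, although the extraction text of the labels speaks of an endothelial sort. The pan-leukocyte gene Ptprc was low in ctrl (2.56), HL60 late (2.47) and ML1 late (2.39), and higher in the early groups, at 3.28 and 4.88 in HL60 ch- and ch+ and 5.13 and 4.71 in ML1 ch- and ch+ cells. All 12 early libraries lay above ctrl, and no test is given, since the filter at a mean of 3.32 let Ptprc through only for the early groups.

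Chemokines are small secreted proteins that steer leukocytes through receptors on their surface, and marrow stroma makes several of them. CC chemokines such as CCL2 attract monocytes, whereas CXC chemokines attract neutrophils, lymphocytes or progenitors depending on the member. Cytokines of the IL-6 family signal through the shared receptor chain gp130, encoded by Il6st, to the kinases of the JAK family and to STAT3, and IL-6 itself is known for its effect on myelopoiesis.

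At the late stage most of these genes were higher than in ctrl. Averaged over both lines, 9 of the 10 rose, in a comparison where 22.8% of all tested genes were called (adjusted p under 0.1 in limma). Their median log2 difference was 1.71, beside 0.02 over all tested genes. With HL60, 6 rose (13.7% of all genes called) at a median difference of 1.22, and with ML1, 9 rose (22% called) at a median of 2.22. None fell in either line. The lines were then set against each other directly. In late ML1 against late HL60, 6 of the 10 were higher (4.09% of all genes called), namely Ccl2, Ccl7, Cxcl1, Cxcl10, Il6 and Lif, at a median difference of 1.43. Only Ccl2 held throughout, since 1 was called without HL60 late library 397 or with no filter on low values, and 2 without ML1 late library 582 or 583. Of all 12976 genes, 121 were higher and 410 lower in that comparison. The comparisons of both lines with ctrl share the same 3 ctrl libraries. In such bulk samples, more cells of a type and more RNA per cell cannot be told apart.

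The late libraries had smaller sums of values on the linear scale, at 8.41e+06 to 9.02e+06 with HL60 and 7.26e+06 to 7.46e+06 with ML1, against 1.19e+07 to 1.42e+07 in ctrl. Rescaling each library to the same sum moved the median difference of all genes to 0.58 in HL60 late against ctrl, to 0.84 in ML1 late against ctrl and to 0.24 in late ML1 against HL60. Relative to that median the differences of the members stayed close to the first values: Ccl2 was 1.39 higher in HL60 late and 3.96 higher in ML1 late, and Cxcl14 1.80 and 1.64 higher. After rescaling, 5160 genes were higher and 379 lower in HL60 late, against 838 and 940 before. In ML1 late the split was 8195 higher and 611 lower, against 1283 and 1568 before. For late ML1 against HL60 the balance turned, to 444 higher and 261 lower, against 121 and 410 before. Values that follow are given without rescaling, and a sign that turned with it is stated.

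**Figure D1:**
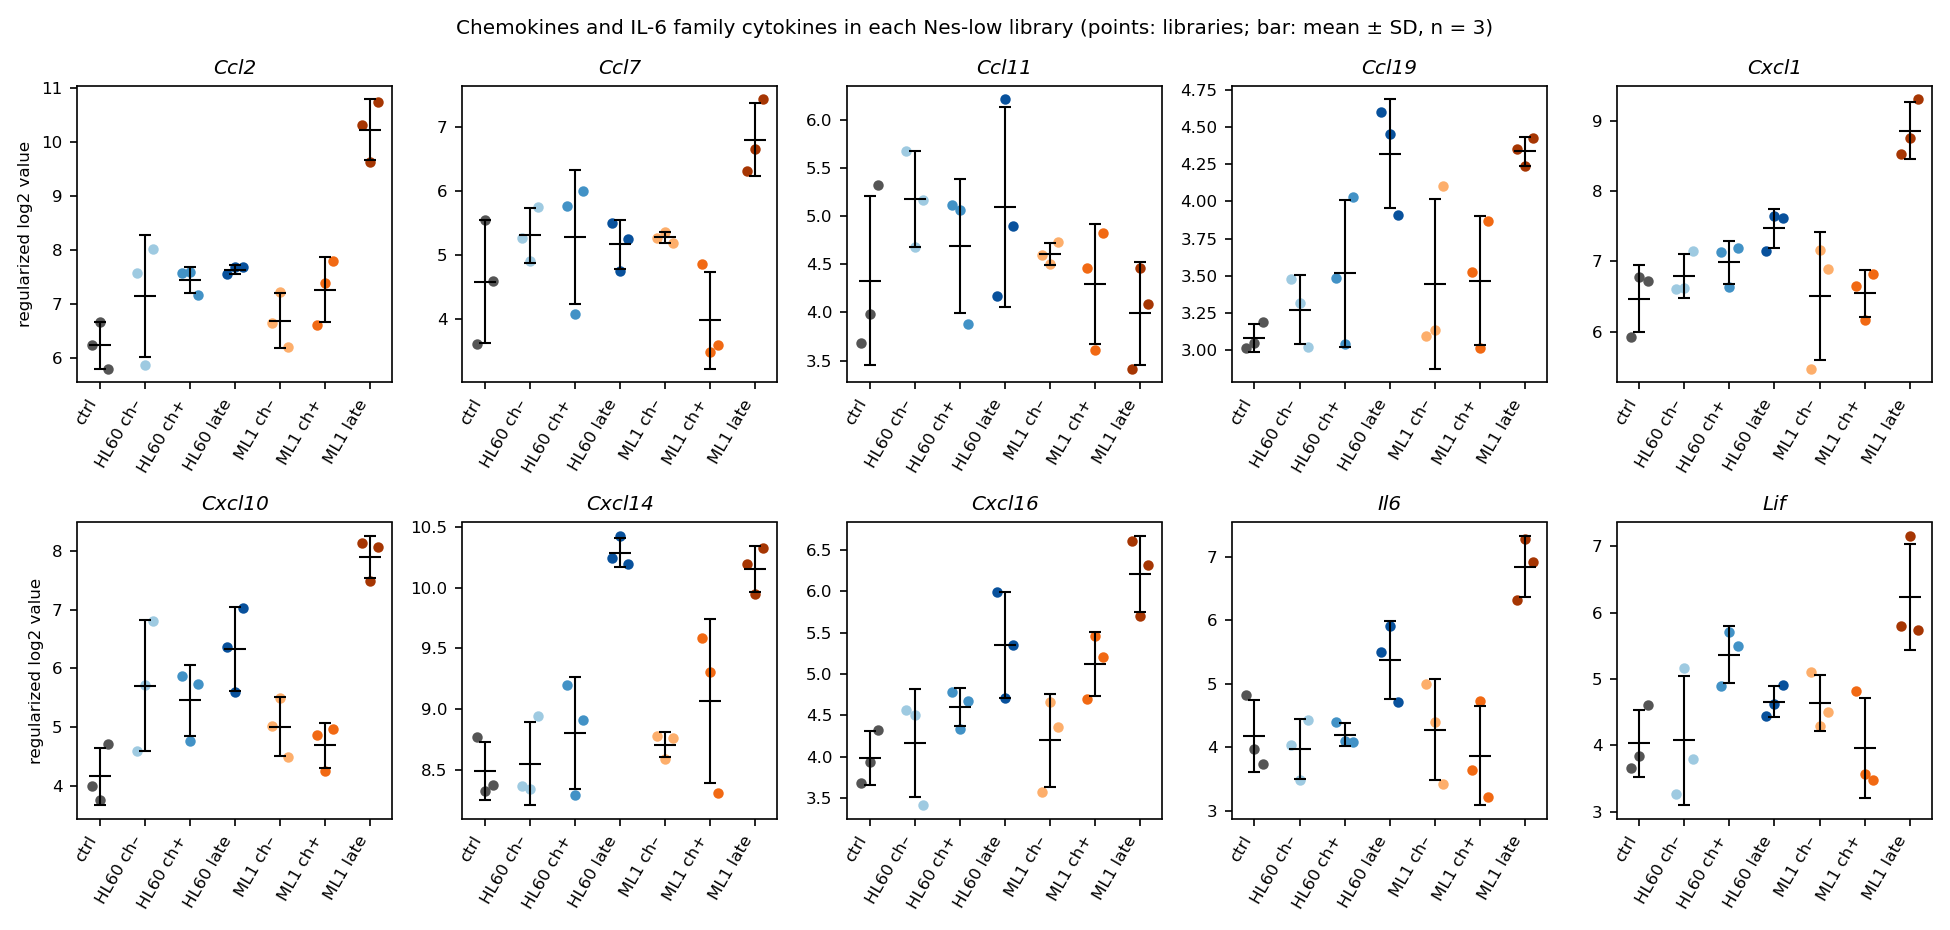
Regularized log2 value of each of the 10 genes in each library (points), with the mean and SD of the 3 libraries of a group (bars). All 3 ML1 late libraries lie above the other 18 for Ccl2, from 9.64 to 10.75, and for Cxcl1, from 8.52 to 9.30, whereas Cxcl14 is high in both late groups.

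The CC chemokine genes Ccl2, Ccl7 and Ccl11 are neighbours on chromosome 11, at chr11:82035571-82037453, chr11:82045712-82047525 and chr11:82057823-82062955 on the plus strand of GRCm38. CCL2 and CCL7 attract monocytes through CCR2. Ccl2 (ENSMUSG00000035385) had log2 values of 6.25, 6.67 and 5.81 in ctrl, 7.55, 7.69 and 7.69 in HL60 late, and 10.31, 9.64 and 10.75 in ML1 late. In early cells Ccl2 was at 7.58, 5.88 and 8.02 in HL60 ch- cells and at 7.58, 7.60 and 7.17 in HL60 ch+ cells. With ML1 the Ccl2 values were 6.66, 7.22 and 6.21 in ch- cells and 6.62, 7.39 and 7.81 in ch+ cells. So the 3 ctrl libraries lay below all 6 late libraries and the late lines did not overlap. The early groups spread from the range of ctrl to just above that of HL60 late, and only the HL60 ch+ group lay wholly above ctrl. Ccl2 rose by 1.40 in HL60 late (95% confidence interval 0.58 to 2.22, 2.64-fold, adjusted p = 0.0201). In ML1 late it rose by 3.99 (3.17 to 4.81, 15.9-fold, adjusted p = 6.13e-09). The difference of 2.59 between the lines was itself called (1.77 to 3.41, adjusted p = 5.39e-05). It was called under all 8 other settings and without each of the 21 libraries in turn, at 2.33 to 2.88. The HL60 late call was lost without ctrl library 375 (1.18) and without the filter on low values.

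Ccl7 (ENSMUSG00000035373) had values of 3.62, 5.54 and 4.59 in ctrl, 5.50, 4.75 and 5.25 in HL60 late, and 6.31, 6.66 and 7.42 in ML1 late. Its early values were 5.27, 4.90 and 5.75 in HL60 ch-, 5.77, 4.07 and 5.99 in HL60 ch+, 5.27, 5.36 and 5.19 in ML1 ch-, and 4.85, 3.49 and 3.60 in ML1 ch+ cells. Ctrl spread widely and overlapped HL60 late, while the 3 ML1 late libraries lay above all others. Ccl7 rose by 2.21 in ML1 late (1.17 to 3.25, 4.64-fold, adjusted p = 0.00173). In HL60 late its difference was 0.58 (−0.46 to 1.62, adjusted p = 0.576), or 1.15 with a call on rescaling (adjusted p = 0.0821). Relative to the median of all genes the rescaled difference was again 0.58. The lines differed by 1.63 (0.59 to 2.67, adjusted p = 0.0854), a call that was lost without HL60 late library 397 (1.80), 398 (1.42) or 399 (1.67) and without ML1 late library 582 (1.70) or 583 (1.32). Averaged over both lines Ccl7 rose by 1.40 (adjusted p = 0.0245), but by 0.91 and with no call without ctrl library 373.

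Ccl11, whose product attracts eosinophils, was the member with no call at the late stage. The gene (ENSMUSG00000020676) had values of 3.68, 3.99 and 5.33 in ctrl, 4.17, 6.21 and 4.90 in HL60 late, and 3.42, 4.47 and 4.09 in ML1 late. Over the 12 early libraries it ranged from 3.61 to 5.68. Each group overlapped ctrl and HL60 late, and both ch- groups lay above ML1 late. Its difference was 0.76 in HL60 late (−0.27 to 1.80, adjusted p = 0.426) and −0.34 in ML1 late (−1.37 to 0.69, adjusted p = 0.734). With rescaling to equal sums these became 1.34, with a call at adjusted p = 0.0399, and 0.48, or 0.76 and −0.37 relative to the median of all genes. Late ML1 against HL60 differed by −1.10 (−2.14 to −0.07, adjusted p = 0.395).

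CCL19 guides dendritic cells and T cells through CCR7. Ccl19 (ENSMUSG00000071005, chr4:42754525-42756577 on the minus strand of GRCm38) had values of 3.01, 3.05 and 3.19 in ctrl, 4.60, 4.45 and 3.91 in HL60 late, and 4.35, 4.24 and 4.43 in ML1 late. Early Ccl19 values were 3.48, 3.32 and 3.02 in HL60 ch-, 3.49, 3.04 and 4.03 in HL60 ch+, 3.10, 3.14 and 4.10 in ML1 ch-, and 3.52, 3.01 and 3.87 in ML1 ch+ cells. Both late groups lay above ctrl, and late lines overlapped. Ccl19 rose by 1.24 in HL60 late (2.36-fold, adjusted p = 0.0251) and by 1.25 in ML1 late (2.38-fold, adjusted p = 0.0144). The lines differed by 0.02 (−0.73 to 0.76, adjusted p = 0.999). Without HL60 late library 397 the HL60 difference was 1.10 and not called. The ctrl mean of 3.08 was under the filter at 3.32, so Ccl19 was tested only because other groups were higher. Its transcripts also share 202 of 895 stretches of 31 bases with the pseudogene Ccl19-ps1 and 294 with Ccl19-ps3, which had mean values of 0.0771 and −1.31, and a further copy of Ccl19 on an unplaced scaffold was not analysed here.

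Among the CXC chemokines, CXCL1 recruits neutrophils through CXCR2. Cxcl1 (ENSMUSG00000029380, chr5:90891241-90893115, plus strand) had values of 5.92, 6.78 and 6.72 in ctrl, 7.15, 7.65 and 7.62 in HL60 late, and 8.52, 8.75 and 9.30 in ML1 late. The early values were 6.60, 6.63 and 7.15 in HL60 ch-, 7.13, 6.63 and 7.19 in HL60 ch+, 5.47, 7.16 and 6.89 in ML1 ch-, and 6.64, 6.17 and 6.82 in ML1 ch+ cells. The 3 groups of ctrl, HL60 late and ML1 late did not overlap, and the early libraries overlapped ctrl. Cxcl1 rose by 1.00 in HL60 late (2.00-fold, adjusted p = 0.0807) and by 2.39 in ML1 late (5.23-fold, adjusted p = 9.24e-06). The HL60 call was lost without ctrl library 373 (0.73), HL60 late library 398 (0.92) or 399 (0.93). It was also lost with no filter, with no mean-variance trend and at an adjusted p under 0.05. The lines differed by 1.39 (0.64 to 2.13, adjusted p = 0.0256), a call lost without HL60 late library 397 (1.23) or ML1 late library 583 (1.16).

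CXCL10 is an interferon-induced attractant of activated T cells through CXCR3. Cxcl10 (ENSMUSG00000034855, chr5:92346638-92348889, minus strand) had values of 4.003, 3.77 and 4.71 in ctrl, 6.36, 5.60 and 7.03 in HL60 late, and 8.13, 7.48 and 8.07 in ML1 late. Early Cxcl10 values were 4.58, 5.71 and 6.81 in HL60 ch-, 5.87, 4.76 and 5.73 in HL60 ch+, 5.01, 5.50 and 4.49 in ML1 ch-, and 4.86, 4.25 and 4.96 in ML1 ch+ cells. Ctrl was lowest, ML1 late was highest, and the early libraries ran from within ctrl into the range of HL60 late. Cxcl10 rose by 2.17 in HL60 late (4.51-fold, adjusted p = 0.0025) and by 3.74 in ML1 late (13.3-fold, adjusted p = 7.67e-07). The difference of 1.56 between the lines (adjusted p = 0.0852) was lost without HL60 late library 397 (1.58) or 398 (1.198) and without ML1 late library 581 (1.45), 582 (1.77) or 583 (1.48). Cxcl10 shares 133 exon bases with Art3 on the other strand, whose means were 4.77 in ctrl, 5.69 in HL60 late and 6.19 in ML1 late. The paper calls the reads strand-specific, which the library kit named in the labels may not provide. How reads from the shared bases were assigned was not tested.

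CXCL14 is made by stroma and epithelium in the steady state. Cxcl14 (ENSMUSG00000021508, chr13:56288643-56296551, minus strand) had values of 8.77, 8.33 and 8.37 in ctrl, 10.24, 10.43 and 10.20 in HL60 late, and 10.20, 9.94 and 10.32 in ML1 late. The early values were 8.36, 8.34 and 8.94 in HL60 ch-, 9.20, 8.29 and 8.91 in HL60 ch+, 8.78, 8.58 and 8.76 in ML1 ch-, and 9.59, 9.30 and 8.31 in ML1 ch+ cells. All 6 late libraries lay above the other 15, and the late lines overlapped. Cxcl14 rose by 1.80 in HL60 late (3.49-fold, adjusted p = 6.85e-06) and by 1.67 in ML1 late (3.18-fold, adjusted p = 9.05e-06). The lines differed by −0.13 (−0.65 to 0.38, adjusted p = 0.968), a difference whose sign turned to 0.11 on rescaling to equal sums. Cxcl14 was also the only member called between late and early ch+ cells of HL60 (1 of 10 members, 10.2% of all genes called), at 1.49 (adjusted p = 0.000147).

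CXCL16 is a membrane-bound ligand of CXCR6 that can be shed. Cxcl16 (ENSMUSG00000018920, chr11:70453983-70459984, minus strand) had values of 3.69, 3.94 and 4.33 in ctrl, 5.99, 4.71 and 5.35 in HL60 late, and 6.60, 5.70 and 6.32 in ML1 late. Its early values were 4.57, 4.51 and 3.42 in HL60 ch-, 4.79, 4.34 and 4.67 in HL60 ch+, 3.58, 4.67 and 4.36 in ML1 ch-, and 4.70, 5.46 and 5.20 in ML1 ch+ cells. Every late library lay above ctrl, and HL60 and ML1 late overlapped. Cxcl16 rose by 1.36 in HL60 late (2.57-fold, adjusted p = 0.037) and by 2.22 in ML1 late (4.65-fold, adjusted p = 0.00025). The difference between the lines was 0.86 (−0.02 to 1.73, adjusted p = 0.485). Without ctrl library 373 (1.21) or HL60 late library 397 (1.04) the HL60 call was lost. Cxcl16 overlaps Zmynd15 on the other strand over 552 exon bases, and Zmynd15 was low, at 1.55 in ctrl, 1.69 in HL60 late and 1.96 in ML1 late.

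Il6 and Lif encode the IL-6 family members. Il6 (ENSMUSG00000025746, chr5:30013114-30019981, plus strand) had values of 4.82, 3.98 and 3.73 in ctrl, 5.50, 5.92 and 4.71 in HL60 late, and 6.33, 7.29 and 6.92 in ML1 late. Its early values were 4.03, 3.48 and 4.42 in HL60 ch-, 4.40, 4.10 and 4.08 in HL60 ch+, 5.00, 4.40 and 3.42 in ML1 ch-, and 3.64, 4.73 and 3.22 in ML1 ch+ cells. The early groups sat at the level of ctrl, HL60 late overlapped ctrl by 1 library, and ML1 late lay above all others. Il6 rose by 2.67 in ML1 late (6.35-fold, adjusted p = 7.11e-05). In HL60 late the difference was 1.198 (0.24 to 2.15, adjusted p = 0.112), which was called without ctrl library 373 (1.52) or HL60 late library 399 (1.53). It was also called, with the difference unchanged, without ML1 ch- library 543 or 546 or ML1 ch+ library 539, and, at 1.77, on rescaling to equal sums. Relative to the median of all genes the rescaled difference was 1.19. The lines differed by 1.47 (adjusted p = 0.0963). That call stood without 10 of the 21 libraries and was lost without the other 11, among them HL60 late libraries 397 (1.53) and 399 (1.14) and ML1 late libraries 582 (1.25) and 583 (1.43). The other 7 were ctrl library 374, HL60 ch- library 527, HL60 ch+ libraries 523, 524 and 525, ML1 ch- library 544 and ML1 ch+ library 538, where the difference itself did not move.

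LIF acts through LIFR and gp130 and is known in bone for effects on osteoblasts and osteoclasts. Lif (ENSMUSG00000034394, chr11:4257557-4272514, plus strand) had values of 3.66, 3.84 and 4.61 in ctrl, 4.45, 4.62 and 4.91 in HL60 late, and 5.81, 7.15 and 5.74 in ML1 late. Early Lif values were 3.27, 5.16 and 3.80 in HL60 ch-, 4.89, 5.71 and 5.50 in HL60 ch+, 5.11, 4.30 and 4.51 in ML1 ch-, and 4.83, 3.57 and 3.48 in ML1 ch+ cells. ML1 late lay above all other groups, and the 3 HL60 ch+ libraries lay above ctrl. Lif rose by 2.20 in ML1 late (4.58-fold, adjusted p = 0.00122), and its difference in HL60 late was 0.62 (adjusted p = 0.524), or 1.19 with a call on rescaling (adjusted p = 0.0561). Relative to the median of all genes the rescaled HL60 difference was again 0.62. The lines differed by 1.57 (adjusted p = 0.0817), a call lost without HL60 late library 397 (1.47), 398 (1.55) or 399 (1.70) and without ML1 late library 582 (1.11). Over the 6 members that differed between the late lines, leaving out 1 library left 1 to 6 calls, with 1 without HL60 late library 397, 3 without HL60 late library 398 or 399, and 2 without ML1 late library 582 or 583. With no filter on low values 1 was called, and 2 with no mean-variance trend or at an adjusted p under 0.05.

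**Figure D2:**
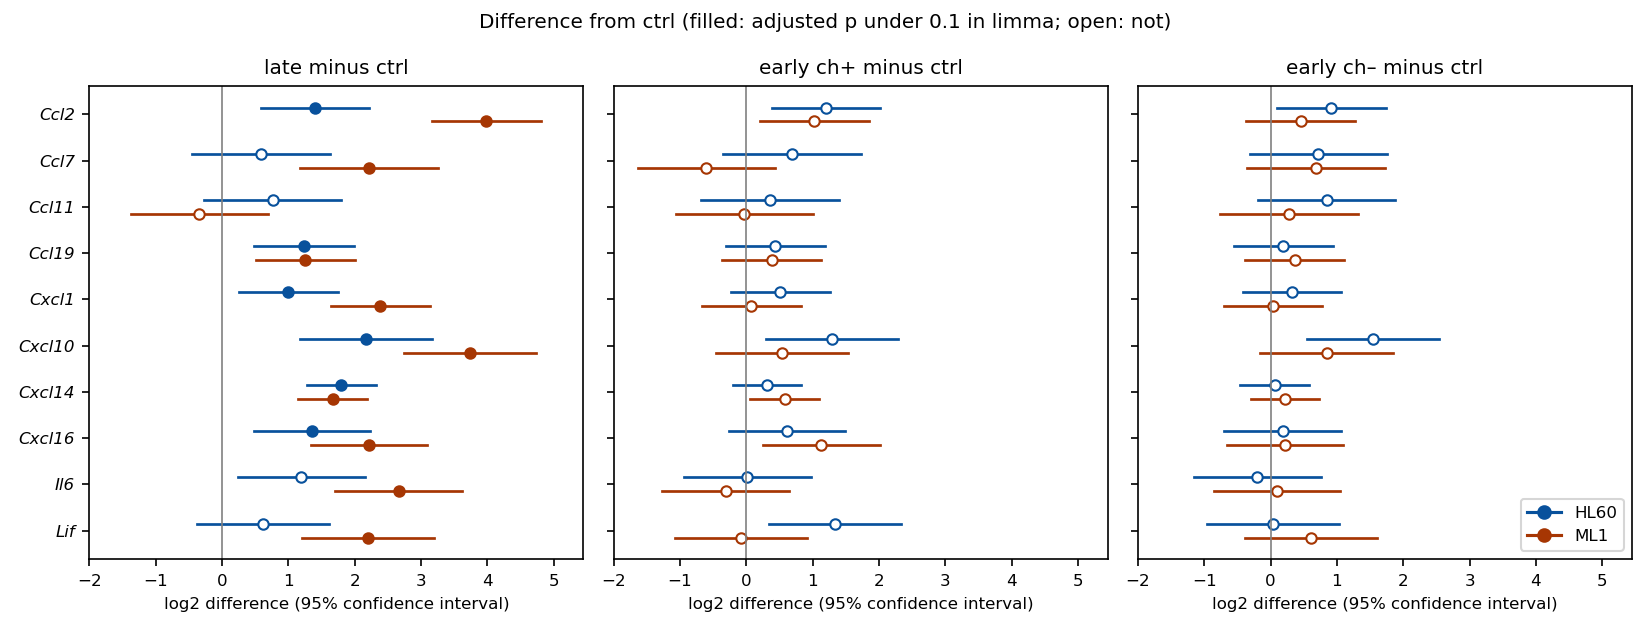
Log2 difference from ctrl of each gene for late, early ch+ and early ch- cells, with 95% confidence intervals, HL60 and ML1 apart. Filled points have an adjusted p under 0.1 in limma, and filled points appear at the late stage alone, 6 with HL60 and 9 with ML1. Among them is Ccl19 with both lines, whose ctrl mean was under the filter.

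The early comparisons ask whether cells next to the first leukemic cells already differ. In ch+ cells of both lines together against ctrl, 1 of the 10 genes was called (8.18% of all genes called), and it was Ccl2, at 1.12 (0.41 to 1.82, 2.17-fold, adjusted p = 0.055). This call was lost without ctrl library 373 (1.12) or 375 (0.90) and without ML1 ch+ library 541 (0.98). It was also lost with no filter, with no mean-variance trend, in a fit of 4 groups and at an adjusted p under 0.05. For each line alone limma called 0 members in ch+ cells, where 5.33% of all genes were called with HL60 and 6.69% with ML1. At an unadjusted p under 0.05 there were 3 with HL60 (Ccl2, Cxcl10 and Lif) and 3 with ML1 (Ccl2, Cxcl14 and Cxcl16). The Ccl2 difference was 1.204 with HL60 (0.39 to 2.02) and 1.03 with ML1 (0.21 to 1.85). With HL60 its adjusted p of 0.1 just missed a call, and it was called without ctrl library 374 (1.42), HL60 ch- library 528 or 529, ML1 ch- library 544 or 546 or ML1 ch+ library 538 or 541, where, ctrl apart, the difference did not move. With ML1, Ccl2 was called without HL60 ch- library 528 (1.03) or ML1 ch+ library 538 (1.35), and Cxcl14 without ML1 ch+ library 541 (0.96). Without that library Cxcl14 was also called over both lines, at 0.63 against ctrl and 0.49 against ch- cells.

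In ch- cells limma called 0 members over both lines (2.72% of all genes called), 0 with HL60 (1.57%) and 0 with ML1 (2.34%). At an unadjusted p under 0.05 there was 1 over both lines (Cxcl10), 2 with HL60 (Ccl2 and Cxcl10) and 0 with ML1. Cxcl10 differed from ctrl by 1.19 over both lines (adjusted p = 0.179) and by 1.55 with HL60 (adjusted p = 0.15). Without HL60 ch- library 527 these were 1.48 and 2.11 and were called. Ccl2 was called without HL60 ch- library 528, at 1.00 over both lines and 1.55 with HL60. The median difference of the 10 genes was 0.43 in ch+ cells and 0.30 in ch- cells over both lines, with medians of all genes at 0.01.

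Ch+ cells were also set against ch- cells, a comparison that needs no ctrl library. Here limma called 0 members over both lines (7.72% of all genes called), 0 with HL60 (3.92%) and 0 with ML1 (4.25%), and at an unadjusted p under 0.05 it gave 1 (Cxcl16), 1 (Lif) and 2 (Ccl7 and Cxcl16). Lif was 1.29 higher in ch+ cells with HL60 (0.30 to 2.29, adjusted p = 0.201), and was called at 1.84 without HL60 ch- library 528. Ccl7 differed by −1.29 with ML1 (−2.33 to −0.25, adjusted p = 0.214), and was called at −1.73 without ML1 ch+ library 538. Between the lines, limma called 0 members in ch+ cells (0.0154% of all genes called, 2 members at an unadjusted p under 0.05, Ccl7 and Lif). It called 0 in ch- cells (0.0539%, 0 at an unadjusted p under 0.05). For the line difference of ch+ against ch- it also called 0 (0.00771%, 1 at an unadjusted p under 0.05), where Lif stood at −1.97 (−3.38 to −0.56, adjusted p = 0.66).

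Late cells were then compared with early ch+ cells. With ML1, 7 of the 10 rose (16.9% of all genes called). Cxcl10 was 3.21 higher (adjusted p = 1.16e-05), Il6 2.98 (adjusted p = 1.93e-05), Ccl2 2.96 (adjusted p = 1.79e-06), Ccl7 2.81 (adjusted p = 0.000135), Cxcl1 2.31 (adjusted p = 1.95e-05), Lif 2.27 (adjusted p = 0.00107) and Cxcl14 1.09 (adjusted p = 0.0026). For Cxcl14 the difference was 0.71 without ML1 ch+ library 541, still called. Cxcl16 missed the threshold at 1.08 (adjusted p = 0.101), but was called without ML1 late library 582 (1.34) or ML1 ch+ library 539 (1.25). It was also called, at an unchanged 1.08, without ctrl library 375, HL60 ch- library 529, HL60 late library 397 or 398 or ML1 ch- library 543 or 544, and Ccl19 was called at 1.07 without ML1 ch+ library 541. Among the other settings, a pseudocount (1.06), quantile normalization (1.09), rescaling (1.85), no mean-variance trend and the compared groups alone called Cxcl16, and rescaling (1.63) and no trend (0.87) called Ccl19. Rescaling moved the median difference of all genes to 0.79 in this ML1 comparison. With HL60 the Cxcl14 call stood alone, and Ccl19 and Il6 reached an unadjusted p under 0.05. Il6 was called there, at 1.51, without HL60 late library 399 and, at 1.18, in a fit of the compared groups alone. Rescaling to equal sums called 5 more, Il6 at 1.65, Cxcl10 at 1.35, Ccl19 at 1.27, Cxcl16 at 1.22 and Cxcl1 at 0.96. It moved the median difference of all genes to 0.46 there.

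Levels were compared between the genes only after division by length in kilobases of exon, on the log2 scale. In ctrl, Cxcl14 led at 7.62 ± 0.24 per kb (SD, n = 3), followed by Ccl2 at 6.06 ± 0.43, Cxcl1 at 5.56 ± 0.48, Ccl7 at 4.90 ± 0.96 and Ccl11 at 4.22 ± 0.88. Lower levels were seen for Ccl19 (3.29 ± 0.09), Cxcl10 (2.99 ± 0.49), Il6 (2.90 ± 0.57), Cxcl16 (2.39 ± 0.32) and Lif (1.91 ± 0.50). Cxcl14 stood clear of Ccl2, whereas from Ccl2 down each gene was within the joined SDs of the next. In HL60 late Cxcl14 still led, at 9.42 ± 0.12, ahead of Ccl2 at 7.46 ± 0.08 and Cxcl1 at 6.57 ± 0.28. In ML1 late the order was headed by Ccl2 at 10.05 ± 0.56, then Cxcl14 at 9.29 ± 0.19, Cxcl1 at 7.95 ± 0.40, Ccl7 at 7.12 ± 0.57, Cxcl10 at 6.73 ± 0.36 and Il6 at 5.56 ± 0.48, with Cxcl16 at 4.61 ± 0.46, Ccl19 at 4.54 ± 0.10, Lif at 4.11 ± 0.80 and Ccl11 at 3.88 ± 0.53. Neighbours among the last 4 did not differ beyond their spread, nor did Cxcl1 from Ccl7 or Ccl7 from Cxcl10.

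Of 30 other chemokine ligands 24 were in the table and 9 were tested. In HL60 late (13.7% of all genes called) 4 rose and 1 fell, with no fall called without ctrl library 373 or HL60 late library 397, and in ML1 late (22% called) 4 rose. Median differences were 0.36 and 0.91. Cx3cl1, the membrane-bound ligand of CX3CR1, rose by 1.71 in HL60 late (adjusted p = 4.53e-06) and by 2.39 in ML1 late (adjusted p = 3.82e-09). Cxcl12, which retains hematopoietic stem cells in the marrow, rose by 1.06 (adjusted p = 0.000105) and 0.91 (adjusted p = 0.000352). The interferon-gamma-induced Cxcl9 rose by 2.33 (adjusted p = 0.00629) and 2.59 (adjusted p = 0.00124). The B cell attractant Cxcl13 differed between the lines the other way. It rose by 3.64 in HL60 late (adjusted p = 7.52e-07) and was lower in late ML1 than in late HL60, at −2.70 (adjusted p = 0.000147). Its difference from ctrl in ML1 late was 0.94 (adjusted p = 0.16), called at 1.28 without ML1 late library 583.

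Chemokine receptors were mostly low, with 21 of 23 in the table and 6 tested. In HL60 late (13.7% of all genes called) 1 rose and 1 fell, and in ML1 late (22%) 2 fell, with median differences of −0.35 and −0.72 that turned to 0.22 and 0.10 on rescaling to equal sums. Ackr3, a scavenger of CXCL12, fell by 1.45 in HL60 late (adjusted p = 0.00012) and by 2.11 in ML1 late (adjusted p = 1.31e-07). Ackr4, a scavenger of CCL19 and CCL21, was lower in late ML1 than in late HL60, at −0.88 (adjusted p = 0.00127). Against ctrl it was at the edge of the threshold, 0.45 higher in HL60 late (adjusted p = 0.0967) and 0.42 lower in ML1 late (adjusted p = 0.089), the latter turning to 0.39 on rescaling. The HL60 call was lost without ctrl library 373 (0.33) or 374 (0.46), HL60 late library 397 (0.50), 398 (0.36) or 399 (0.50), and, with no move, HL60 ch- library 528, HL60 ch+ library 523, 524 or 525, ML1 ch+ library 538, 539 or 541 or ML1 late library 581 or 583. The ML1 call was lost without ctrl library 374 (−0.42) or 375 (−0.31), ML1 late library 581 (−0.46) or 582 (−0.28), and, with no move, HL60 late library 397 or 399.

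In early ch+ cells over both lines (8.18% of all genes called) 3 receptor genes rose, with Cxcr2 left out of this count. They were Ackr4 by 0.85 (adjusted p = 0.00033), Ackr3 by 0.71 (adjusted p = 0.0477) and Ackr2 by 1.78 (adjusted p = 0.0366). The Ackr3 call was lost without ctrl library 373 (0.56) or HL60 ch+ library 524 (0.54), and the Ackr2 call without ctrl library 375 (1.23). Cxcr2, a receptor of neutrophils for CXCL1, was at 2.51 in ctrl, 2.44 in HL60 late and 2.37 in ML1 late, and at 4.45 and 4.54 in HL60 ch- and ch+ and 3.77 and 4.68 in ML1 ch- and ch+ cells. It passed the filter only for the early groups, so no test of it is given. Neutrophil markers had means of 6.99 to 7.62 in the early groups against 3.88 in ctrl, and their part in the Cxcr2 values was not tested.

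For the IL-6 family, 7 of 9 other ligands were in the table and 2 were tested, and 1 rose in each late group. This was Clcf1, a ligand of the CNTF receptor, at 1.58 in HL60 late (adjusted p = 0.0288) and 2.51 in ML1 late (adjusted p = 0.000212). The HL60 call was lost without ctrl library 373 (1.26) or HL60 late library 397 (1.26) or 398 (1.49). Clcf1 also rose in early ch- cells, by 1.76 over both lines (adjusted p = 0.0202), 1.84 with HL60 (adjusted p = 0.0562) and 1.67 with ML1 (adjusted p = 0.0772), of which no call was left without ctrl library 373 (1.44, 1.52 and 1.35) or with no filter. All 8 receptor genes were in the table and 5 were tested, of which 1 rose and 1 fell in each late group, with the same 13.7% and 22% of all genes called (median differences 0.25 and 0.15). Osmr, the oncostatin M receptor chain, rose by 1.51 in HL60 late (adjusted p = 3.26e-07) and by 1.89 in ML1 late (adjusted p = 1.24e-09). Lifr, the receptor chain for LIF, fell by 1.07 in ML1 late (adjusted p = 3.69e-08) and was lower in late ML1 than HL60 at −0.63 (adjusted p = 0.000813). In HL60 late it fell by 0.44 (adjusted p = 0.0118), but turned to 0.13 on rescaling and had no call without HL60 late library 399 (−0.35). The gp130 gene Il6st differed by 0.25 (adjusted p = 0.238) and 0.23 (adjusted p = 0.232) in the late groups.

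JAK-STAT signalling and its feedback was represented by 15 tested genes, read against 13.7% of all genes called in HL60 late and 22% in ML1 late. Over all 16 measured genes the mean was 8.04 ± 0.15 in ctrl, 8.20 ± 0.07 in HL60 late and 8.38 ± 0.11 in ML1 late (SD, n = 3). The genes named here are among those called in the most comparisons, so they do not stand for the whole list. Stat3, the factor downstream of gp130, rose by 0.66 in HL60 late (adjusted p = 0.0074) and 0.82 in ML1 late (adjusted p = 5e-04). Stat2, which carries type I interferon signals, rose by 0.78 in HL60 late (adjusted p = 0.059) and 1.43 in ML1 late (adjusted p = 0.000159). The HL60 call of Stat2 was lost without ctrl library 374 (0.72) or 375 (0.76) or HL60 late library 397 (0.75) or 399 (0.67). The feedback inhibitor Cish rose by 1.98 in ML1 late (adjusted p = 0.00483). In HL60 late its difference of 1.33 was barely called (adjusted p = 0.0982). That call was lost without ctrl library 374 (1.22) or 375 (0.89), HL60 late library 397 (1.38), 398 (1.34) or 399 (1.27), and, with no move, HL60 ch- library 528, HL60 ch+ library 524, ML1 ch- library 546, ML1 ch+ library 538, 539 or 541 or ML1 late library 581, 582 or 583. Between the late lines (4.09% of all genes called) limma called 0 of the 15, with 3 at an unadjusted p under 0.05.

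NF-kappaB, a factor known to induce many chemokine genes and Il6, was represented by 19 tested genes of its subunits and regulators. In HL60 late 3 rose (13.7% of all genes called, 6.46% called higher). In ML1 late 9 rose (22% of all genes called, 9.89% called higher). Median differences were 0.27 and 0.80. The subunit gene Rel rose by 1.02 (adjusted p = 0.0491) and 1.32 (adjusted p = 0.00489), and Relb by 1.2003 (adjusted p = 0.0504) and 1.17 (adjusted p = 0.0396). The inhibitor gene Nfkbie rose by 1.21 (adjusted p = 0.0344) and 2.02 (adjusted p = 0.000159). All 3 HL60 calls were lost without ctrl library 374 (Rel 0.76, Relb 1.13, Nfkbie 1.09) or 375 (0.93, 1.16 and 1.05). HL60 late libraries also decided them, with no call for Rel without 397 (0.80), for Nfkbie without 398 (1.13) and for Relb without 398 (1.09) or 399 (1.03). With ML1 the Relb call was lost without ctrl library 374 (1.10) or ML1 late library 583 (1.03). Tnfaip3, whose product A20 restrains the pathway, rose by 1.85 in ML1 late (adjusted p = 0.000388) and differed by 0.69 in HL60 late (adjusted p = 0.289), called at 1.31 without ctrl library 375. In late ML1 against HL60 (4.09% of all genes called), 2 of the 19 were higher, among them Tnfaip3 at 1.16 (adjusted p = 0.0987). Its call stood only without ctrl library 373 or 375 or ML1 late library 582. It was lost without HL60 late library 397 (1.14), 398 (1.09) or 399 (1.25), ML1 late library 581 (1.09) or 583 (0.92) and, with no move, any of the other 13. Without HL60 late library 398 or 399 limma called 0 of the 19.

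Of 12 tested interferon response genes, 5 rose in HL60 late (13.7% of all genes called) and 11 in ML1 late (22%), with median differences of 0.97 and 1.56. With HL60, 3 were called without ctrl library 375 and 1 without HL60 late library 399. Gbp2, a guanylate-binding protein, rose by 2.16 (adjusted p = 5.25e-05) and 2.10 (adjusted p = 3.33e-05). Ifit1, an antiviral RNA-binding protein, rose by 1.44 (adjusted p = 0.0185) and 2.12 (adjusted p = 0.000238), and the ubiquitin-like Isg15 by 1.33 (adjusted p = 0.028) and 2.12 (adjusted p = 0.000193). The HL60 call of Ifit1 was lost without ctrl library 374 (1.14) or HL60 late library 399 (1.22), and that of Isg15 without ctrl library 375 (0.82) or HL60 late library 399 (1.06). Between the late lines (4.09% of all genes called) 1 of the 12 was higher with ML1, and not called without HL60 late library 398. Rsad2, which encodes the antiviral protein viperin, had another course. Over both lines it rose by 1.80 in early ch+ cells (adjusted p = 0.00487) and by 2.17 in early ch- cells (adjusted p = 0.0019). At the late stage its differences were −0.30 with HL60, or 0.27 after rescaling, and 0.82 with ML1, without a call before rescaling.

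Many chemokine and cytokine transcripts carry AU-rich elements that decay factors bind. Of 8 such factors 2 rose in each late group. Of all genes, 13.7% were called with HL60 (6.46% higher) and 22% with ML1 (9.89% higher). The factors that rose were Zfp36l2, by 1.07 in HL60 late (adjusted p = 0.000124) and 1.32 in ML1 late (adjusted p = 2.46e-06), and Zfp36l1, by 0.81 (adjusted p = 0.000175) and 1.00 (adjusted p = 3.73e-06). Tristetraprolin, encoded by Zfp36, differed by −0.25 (adjusted p = 0.286) and 0.13 (adjusted p = 0.601). The former turned to 0.32 on rescaling and was called at −0.39 without HL60 late library 398. Without ctrl library 374, 4 of the 8 were called in ML1 late. Of 5 proteases that trim chemokines, 1 rose and 1 fell in each late group, with 13.7% and 22% of all genes called. The gelatinase gene Mmp2 fell by 0.53 in HL60 late (adjusted p = 0.00481), which rescaling turned to 0.04, and by 1.59 in ML1 late (adjusted p = 6.02e-11), and was lower in late ML1 than HL60 at −1.06 (adjusted p = 1.02e-06). Mmp14 rose by 0.68 (adjusted p = 0.00229) and 0.58 (adjusted p = 0.00602). Dpp4 was at 3.19 in ctrl, 2.64 in HL60 late and 2.43 in ML1 late, all under the filter at 3.32. It passed that filter only for the early groups, so its late differences are given no test.

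Marker lists were read against the same shares of all genes called, 13.7% in HL60 late and 22% in ML1 late. At the late stage the CAR or LepR+ list averaged 12.34 ± 0.23 with HL60 and 12.30 ± 0.08 with ML1 (SD, n = 3), with 7 of 9 genes higher in HL60 late, and 7 higher and 1 lower in ML1 late. Chondrocyte genes fell, 8 of 8 in each late group, to means of 8.78 with HL60 and 6.96 with ML1. Osteoblast genes fell to a mean of 13.15 in HL60 late (6 of 8 lower, 1 higher) and 11.06 in ML1 late (7 of 8 lower), and 8 of 8 were lower in late ML1 than in late HL60, with Col1a1 as the most abundant gene. After rescaling to equal sums the chondrocyte counts were the same, osteoblast genes were 4 lower and 2 higher in HL60 late and 7 lower and 1 higher in ML1 late, and 7 of 8 were lower in late ML1 than HL60. Of 7 smooth muscle and pericyte genes 5 were lower in each late group, or 3 after rescaling. Of 6 tested endothelial genes limma called 0 in HL60 late (0 at an unadjusted p under 0.05), and 4 were lower in ML1 late. That 4 became 2 without ctrl library 374 or 375 or ML1 late library 581, 1 without ML1 late library 582 or 583, and 2 higher with none lower after rescaling. The 6 members that were higher with ML1 differed between the same libraries as the osteoblast list, and the part of cell make-up in their values was not tested. In early ch+ cells the chondrocyte mean was 8.15 with HL60 and 7.51 with ML1, against 10.88 and 10.44 in ch- cells, and 8 of 8 genes were lower than in ctrl over both lines (8.18% of all genes called). The smooth muscle mean was 8.53 and 8.26 in ch+ cells, against 10.07 and 9.87 in ch- cells, with 7 of 7 lower over both lines, or 6 after rescaling. The CAR or LepR+ mean was 12.07 and 12.23 in ch+ cells, against 11.66 and 12.05 in ch- cells, with 7 of 9 higher over both lines in ch+ cells, and the osteoblast mean was 13.77 and 13.75 against 14.10 and 14.19. The part of this in the early values of the members was not tested either.

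Leukocyte markers were measured because monocytes and macrophages also make several of these proteins. The summed level of 5 general leukocyte genes was 43.8 to 83.7 in ctrl and 32.4 to 36.2 over the 6 late libraries, with Lcp1 as the most abundant gene throughout. Lcp1 was lower by 1.71 in HL60 late (adjusted p = 0.00254 in limma) and by 1.68 in ML1 late (adjusted p = 0.00164). For Ptprc no test is given, as stated above. The summed level of 7 monocyte and macrophage genes was 314 to 501 in ctrl, 224 to 366 in HL60 late and 125 to 252 in ML1 late. Lyz2 led this list in 20 of the 21 libraries. Of its 4 tested genes, Lyz2 was lower and Cd14 higher in HL60 late, and Lyz2 and Mrc1 were lower in ML1 late, whereas after rescaling 1 was higher and none lower in each. With HL60, 1 library decided each call: the lower call was lost without ctrl library 373 or HL60 late library 397 or 399, and the higher call without ctrl library 375 or HL60 late library 398. With ML1, 1 was lower without ctrl library 373 or 375, and 1 was higher with none lower without ML1 late library 581. Csf1r was at 2.78 in ctrl, 2.12 in HL60 late and 2.18 in ML1 late. At the early stage the sum of the leukocyte genes was 111 to 218. That of the monocyte genes was 483 to 1012, which overlaps ctrl and follows Lyz2. In ch- cells over both lines Lyz2 differed from ctrl by 1.27, Cd14 by 0.98, Mrc1 by −0.37 and Ly6c2 by −0.30. In ch+ cells (8.18% of all genes called) Lyz2 was 1.03 higher (adjusted p = 0.0634 in limma), Cd14 1.24 (adjusted p = 0.0958) and Ly6c2 0.94 (adjusted p = 0.198). Mrc1 was at 5.82 in ctrl and, averaged over both lines, in ch+ cells. By line it was at 6.33 in HL60 ch+ and 5.30 in ML1 ch+ cells, with no call against ctrl for either. Ly6c2 was also 1.24 higher in ch+ than in ch- cells (adjusted p = 0.0169, 7.72% of all genes called). Early Csf1r was at 2.61 and 3.26 in HL60 ch- and ch+ and 2.53 and 2.55 in ML1 ch- and ch+ cells. Neutrophil genes averaged 6.99 and 7.19 in HL60 ch- and ch+ and 7.62 and 7.50 in ML1 ch- and ch+ cells, against 3.88 in ctrl, with S100a9 mostly the most abundant. Erythroid genes averaged 4.44 in ctrl and 7.01 to 7.48 in the early groups, and genes of megakaryocytes and platelets 2.19 in ctrl and 2.25 to 2.65. The sort stained for CD45 and Ter119 after the beads had removed blood cells. The part of such transcripts in the early values of Ccl2, Cxcl10 and Cxcl16 was not tested.

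**Figure D3:**
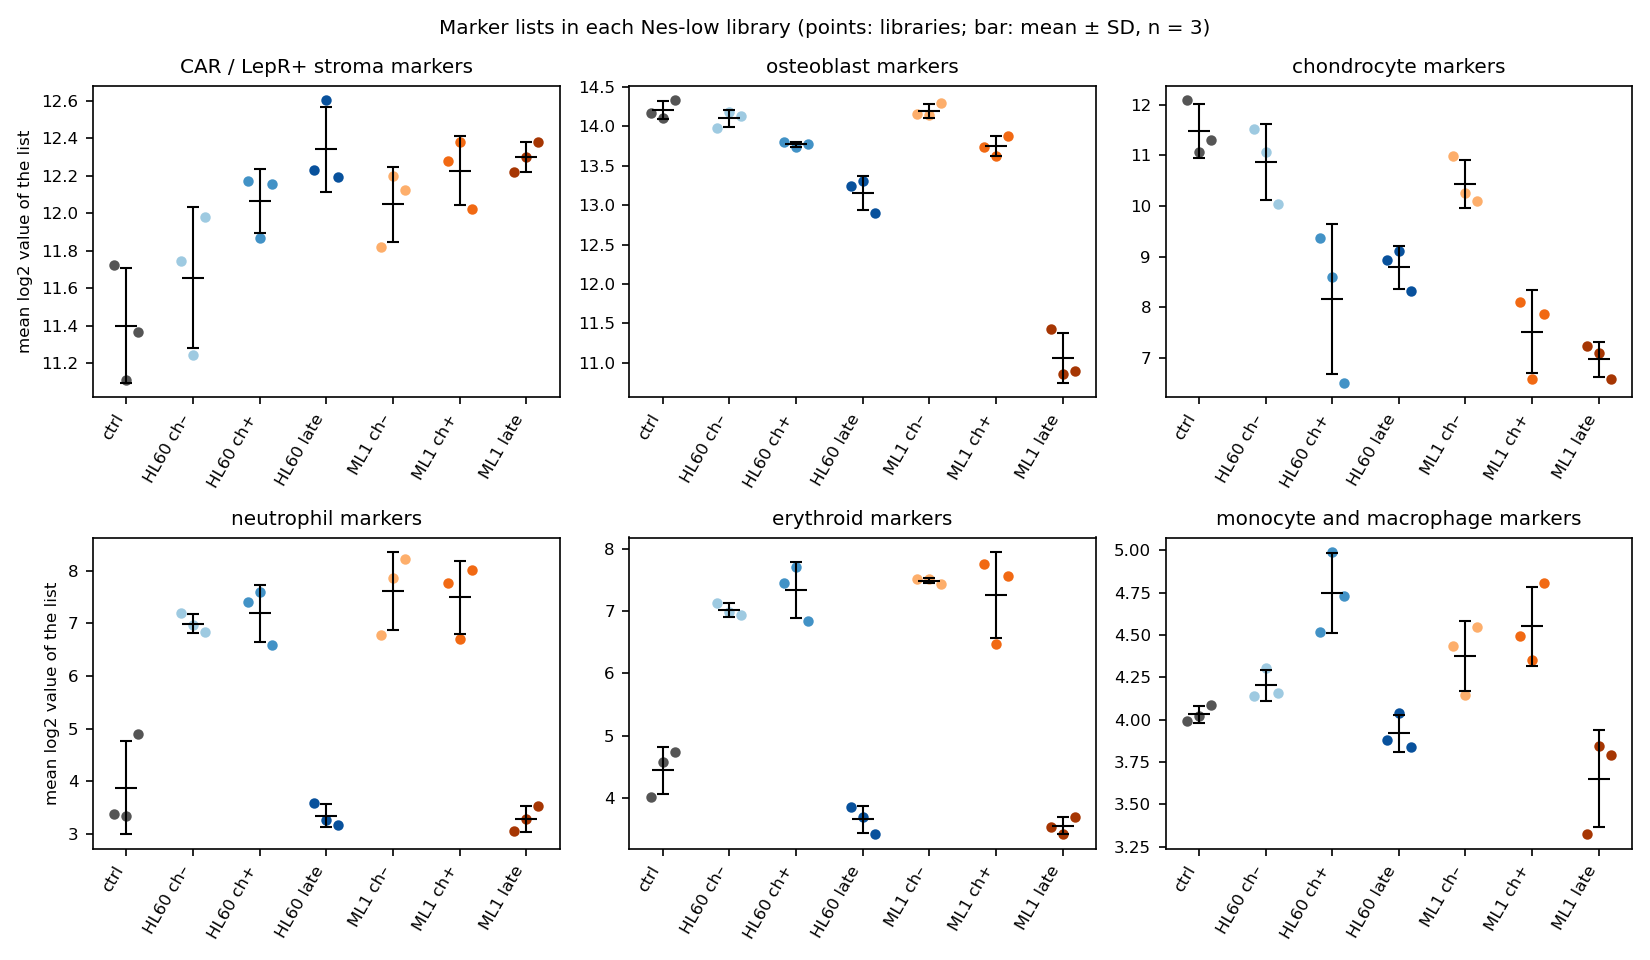
Mean log2 value of 6 marker lists in each library (points), with the mean and SD of each group of 3 (bars). Osteoblast and chondrocyte means are lowest in ML1 late, at 11.06 and 6.96, and neutrophil and erythroid means are raised in the 4 early groups alone.

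A list of 11 immediate early and heat shock genes was looked at after values had been seen, because bone was digested at warm temperature before the sort, and it was given no test. It averaged 10.90 ± 0.06 in ctrl, 10.74 ± 0.11 in HL60 late and 11.45 ± 0.16 in ML1 late (SD, n = 3). All 3 ML1 late libraries lay above the 3 ctrl and the 3 HL60 late libraries. Early means were 11.39 in HL60 ch-, 11.05 in HL60 ch+, 11.43 in ML1 ch- and 10.81 in ML1 ch+ cells. The part of the handling of the cells in the difference between the lines was not tested.

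Across the 21 libraries the members varied together to different degrees, as a description of libraries that share groups and processing. Pearson's r was 0.84 between Cxcl1 and Cxcl10 and between Ccl2 and Cxcl1, 0.81 between Ccl2 and Cxcl10, and 0.79 between Ccl2 and Il6 (n = 21). For Ccl11 it was from −0.34 to −0.01 with the other 9. The genes whose pattern was most like that of a member were Oasl2 for Cxcl10 (r = 0.91, Spearman's rho = 0.89), Antxr1 for Cxcl14 (0.94 and 0.86), Mprip for Il6 (0.91 and 0.79), Ptpn1 for Cxcl1 (0.89 and 0.81), Olfml2a for Ccl2 (0.87 and 0.55), Ggt5 for Cxcl16 (0.87 and 0.85), Nrp1 for Ccl19 (0.86 and 0.83), Gm42679 for Ccl7 (0.84 and 0.80), Gm38251 for Lif (0.82 and 0.80) and Fign for Ccl11 (0.63 and 0.65).

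Promoter sequences are shown for the members that were higher in late ML1 than in late HL60 and had an entry in the promoter table used, taken from RefSeq (GRCm38.p6), with Cxcl14 beside them as a gene that rose with both lines. Of the 10 members 6 matched that table, and Ccl2, Ccl7, Ccl11 and Cxcl16 had no entry in it. Each window runs from 250 bases before to 50 bases after the start of the gene in that table, 5′ to 3′ on its own strand: chr5:90890995-90891294 on the plus strand for Cxcl1, chr5:92348840-92349139 on the minus strand for Cxcl10, chr5:30012864-30013163 on the plus strand for Il6, chr11:4257318-4257617 on the plus strand for Lif and chr13:56296502-56296801 on the minus strand for Cxcl14. Both strands were searched. Capitals mark matches to a core NF-kappaB motif (GGNNTTTCC) or to a core interferon-stimulated response element (ISRE, GAAANNGAA), which were found in 5.82% and 8.56% of all 32851 promoters.
Cxcl1: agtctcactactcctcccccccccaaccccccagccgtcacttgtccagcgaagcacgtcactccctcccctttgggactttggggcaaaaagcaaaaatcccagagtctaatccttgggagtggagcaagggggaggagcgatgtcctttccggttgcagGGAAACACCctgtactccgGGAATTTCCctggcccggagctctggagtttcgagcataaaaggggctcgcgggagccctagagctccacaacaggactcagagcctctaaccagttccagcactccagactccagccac
Cxcl10: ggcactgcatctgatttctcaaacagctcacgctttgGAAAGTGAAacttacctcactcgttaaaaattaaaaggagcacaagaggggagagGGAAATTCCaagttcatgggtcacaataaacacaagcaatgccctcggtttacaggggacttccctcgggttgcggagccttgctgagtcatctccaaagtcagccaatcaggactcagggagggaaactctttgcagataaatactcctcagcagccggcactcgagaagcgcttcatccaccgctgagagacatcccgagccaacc
Il6: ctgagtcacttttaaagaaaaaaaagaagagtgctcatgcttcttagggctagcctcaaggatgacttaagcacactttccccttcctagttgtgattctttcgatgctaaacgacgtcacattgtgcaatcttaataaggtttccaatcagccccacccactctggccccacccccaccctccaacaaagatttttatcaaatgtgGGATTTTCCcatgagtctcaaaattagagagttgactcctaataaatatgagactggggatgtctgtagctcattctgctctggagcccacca
Lif: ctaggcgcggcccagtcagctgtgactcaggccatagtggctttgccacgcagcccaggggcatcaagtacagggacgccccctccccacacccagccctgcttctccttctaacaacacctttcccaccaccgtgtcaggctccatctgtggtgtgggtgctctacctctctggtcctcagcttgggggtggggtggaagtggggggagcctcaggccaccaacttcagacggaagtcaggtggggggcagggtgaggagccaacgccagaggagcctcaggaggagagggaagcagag
Cxcl14: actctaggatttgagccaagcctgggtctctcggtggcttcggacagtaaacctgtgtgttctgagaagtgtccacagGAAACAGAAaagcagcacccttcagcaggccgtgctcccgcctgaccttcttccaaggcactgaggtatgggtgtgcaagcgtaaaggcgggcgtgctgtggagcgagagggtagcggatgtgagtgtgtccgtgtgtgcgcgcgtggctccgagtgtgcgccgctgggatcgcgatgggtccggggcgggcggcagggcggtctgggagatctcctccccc
The NF-kappaB letters began at −89 and −70 in Cxcl1, at −158 in Cxcl10 and at −43 in Il6, counted from the start in the promoter table. That start lies 4 bases inside the gene as placed by GENCODE for Cxcl1, 11 for Lif and 212 for Ccl19, and is the same base for the other 3. The ISRE letters began at −213 in Cxcl10, at −172 in Cxcl14 and, in the window of Ccl19 at chr4:42756316-42756615 on the minus strand, at −208. In lower case, AP-1 letters (TGANTCA, 7.81% of promoters) began at −74 in Cxcl10, −249 in Il6 and −228 in Lif, and STAT letters (TTCNNNGAA, 8.3%) at −191 in Cxcl14. No 2 of these matches overlapped. A match describes letters in the window, and binding was not measured.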

How the data were processed

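Nes low cells of 21 libraries were grouped by the titles and the time point labels. Per the labels, the authors aligned reads to mm10 with STAR 2.5.1b, counted genes with RSEM 1.2.29 and normalized with DESeq2 1.10.1, of which the paper names another version. The values deposited by the authors are regularized log2 values (−2.33 to 22.44), and these understate changes of low genes. The methods name log10, which this range does not allow. Counts could not be recovered. Symbols were matched for 26686 of 26852 IDs (GENCODE, GRCm38). Values were fitted in limma 3.58.1 (R 4.3.3) as 7 groups with a mean-variance trend, two-sided, over 12976 genes with a mean of at least log2 of 10, with Benjamini-Hochberg adjustment within each of 18 comparisons and calls at an adjusted p under 0.1. The fit was tested on simulated data. Alternatives were other filters, a pseudocount of 1, quantile normalization, rescaling to equal sums, no trend, 4 groups, the compared groups alone, a threshold of 0.05 and leaving out each library. Members and lists were chosen with earlier results of these data known. The same alternatives were run on the named list genes and the list counts after their values were seen. Named list genes are those called in the most comparisons, ties by the largest difference, up to 4 a list, of which 1 is not reported here. Figures used Python 3.11.15 and matplotlib 3.10.9.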

Additional observations from a re-analysis of the deposited data

Results flagged for a closer look

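The late libraries of the 2 lines differed by the direct test for 6 members. Late ML1 was above late HL60 by 2.59 for Ccl2, 1.63 for Ccl7, 1.39 for Cxcl1, 1.56 for Cxcl10, 1.47 for Il6 and 1.57 for Lif on the log2 scale. Only the Ccl2 call held under all settings, and the count fell to 1 without HL60 late library 397 or with no filter on low values. The line and any difference in sorting or sequencing between the HL60 and ML1 mice cannot be told apart.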

How the results depend on the processing

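No paired analysis was run, because library numbers are not shared between groups and the labels do not match ch+ with ch- libraries of 1 marrow. Matching them by the order of their numbers would be a guess. What pairing would change in the comparison of ch+ with ch- cells was not tested. No member's called difference changed sign under any setting run. Of the member counts, those for late against ctrl went from 9 to 5 over both lines and from 9 to 5 with ML1 under a filter at a mean of 5, which tests fewer members. With rescaling to equal sums the counts were 10 for HL60 late against ctrl, 2 for HL60 ch+ against ctrl and 6 for HL60 late against ch+. The count for ch+ against ctrl over both lines was 0 with no filter, with no mean-variance trend, with 4 groups and at an adjusted p under 0.05, while for HL60 ch+ the filter at 5 gave 1, and for HL60 late against ch+ a fit of the compared groups alone gave 2. For ML1 late against ch+ the settings gave 5 to 9, with 9 on rescaling or with no trend. Late ML1 against HL60 gave 1 with no filter, 2 with no trend and 2 at an adjusted p under 0.05. The cause was not tested. Leaving out 1 library gave 8 to 9 members for late against ctrl over both lines, 4 to 7 with HL60 and 9 with ML1. It gave 0 to 1 for each comparison of ch+ or ch- with ctrl other than ML1 ch-, which stayed at 0, and 0 to 1 for ch+ against ch- over both lines and in each line. It gave 1 to 2 for HL60 late against ch+, 7 to 8 for ML1 late against ch+ and 1 to 6 for late ML1 against HL60. With rescaling, counts over all genes moved by more than 1.5 times in 5 comparisons: from 2953 to 8555 for late against ctrl over both lines, 1778 to 5539 with HL60, 2851 to 8806 with ML1, and from 1323 to 3913 and 2194 to 8334 for HL60 and ML1 late against ch+. Rescaling also moved the split of genes higher and lower: from 1392 and 1561 to 8004 and 551 for late over both lines, 551 and 772 to 3553 and 360 for HL60 late against ch+, 918 and 1276 to 7783 and 551 for ML1 late against ch+, 121 and 410 to 444 and 261 for late ML1 against HL60, 577 and 485 to 723 and 356 for ch+ against ctrl, 205 and 148 to 144 and 202 for ch- against ctrl, and 532 and 470 to 1076 and 277 for ch+ against ch-. By line it moved 373 and 319 to 533 and 225 for HL60 ch+, 184 and 120 to 110 and 228 for ML1 ch-, and 294 and 215 to 409 and 137, and 304 and 248 to 598 and 162, for ch+ against ch- with HL60 and ML1. With no filter, ch- against ctrl went from 353 to 221 over both lines, 204 to 133 with HL60 and 304 to 178 with ML1, and HL60 ch+ from 692 to 427. With the compared groups alone the ch- counts were 225, 126 and 181, that of ML1 ch+ went from 868 to 552, and late ML1 against HL60 from 531 to 990. At an adjusted p under 0.05 the ch- counts were 222, 133 and 178 and HL60 ch+ 461, and with no trend ML1 ch- was 170. Without ctrl library 374 the ch- counts were 214, 126 and 180, without HL60 ch- library 529 105, without ML1 ch- library 544 181, and without HL60 ch- library 528 HL60 ch+ against ch- went from 509 to 294. Comparisons between the lines at the early stage, with 7 or fewer calls, gave 0 to 8. With 3 libraries a group and no counts, precision can be judged only from the spread between libraries.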
